A study of Homo sapiens with 8 samples.

Results

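The genes described here encode the machinery that displays peptides on MHC class I molecules: the heavy chains HLA-B, HLA-C, HLA-E and HLA-F, their light chain B2M, the peptide transporter subunits TAP1 and TAP2, the loading bridge TAPBP (tapasin), and NLRC5, the transactivator of class I genes. They were chosen by gene symbol among protein-coding genes, with earlier results of these data known. All 9 were found among the 60558 genes of the RNA-seq of 2D human intestinal epithelial cells (hIECs) made from the H9 line of human embryonic stem cells, an established line. There were 4 groups with 2 libraries each. Normal hIECs received neither cytokines nor particles, normal hIECs with PM10 received 100 μg/ml of PM10, the coarse fraction of airborne particulate matter, inflamed hIECs received 50 ng/ml IFNγ with 50 ng/ml TNFα, and inflamed hIECs with PM10 received all of these. The study's methods give 10 days of cytokines with PM10 present over the closing 7 days, while the sample records state 10 days for every group. All groups shared one line and one differentiation medium, which held valproic acid, Wnt-C59 and EGF. Nothing in the sources says that the 2 libraries of a group came from separate cultures, so p-values measure only the spread between these libraries, which may be technical.

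As background, nearly all nucleated cells break down their own proteins with the proteasome, and TAP1 and TAP2 carry the resulting peptides into the endoplasmic reticulum. Tapasin holds the transporter next to empty class I molecules there, and a stable complex of heavy chain, B2M and peptide then travels to the cell surface, where CD8 T cells read it. HLA-E presents signal peptides of other class I molecules to receptors on natural killer cells, and HLA-F is a less variable class I chain. IFNγ is a classical inducer of this pathway through factors such as IRF1, and NLRC5 acts in the nucleus on an enhanceosome that assembles on the X and Y boxes of class I promoters. In the gut, epithelial cells display class I molecules to the T cells that lie between them.

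Start regions of 5 members are shown as a description, and those of HLA-F and TAP2, which also rose under cytokines, are not printed. RefSeq (GRCh38.p14) gave a start region for 7 of the 9 members, with none printed for HLA-E and NLRC5. Each run is the 250 bases before a RefSeq start, 5′ to 3′ on the gene's strand. Capitals mark GAANNGAAA, or GAAA followed after 2 bases by GAAA (both letters of interferon-stimulated response elements), GGGNNTTCC (letters of NF-kappaB sites) and GACGC followed after 15 to 25 bases by ATTGG (letters of the X2 and Y boxes), each searched on both strands. Overlapping matches run together into one stretch of capitals.
HLA-B, chr6:31357180-31357429, minus strand: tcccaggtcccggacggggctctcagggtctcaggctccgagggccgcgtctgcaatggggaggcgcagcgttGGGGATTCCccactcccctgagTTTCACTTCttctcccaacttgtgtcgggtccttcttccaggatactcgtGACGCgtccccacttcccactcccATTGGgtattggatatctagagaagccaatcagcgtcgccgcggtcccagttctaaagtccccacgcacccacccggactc
HLA-C, chr6:31272093-31272342, minus strand: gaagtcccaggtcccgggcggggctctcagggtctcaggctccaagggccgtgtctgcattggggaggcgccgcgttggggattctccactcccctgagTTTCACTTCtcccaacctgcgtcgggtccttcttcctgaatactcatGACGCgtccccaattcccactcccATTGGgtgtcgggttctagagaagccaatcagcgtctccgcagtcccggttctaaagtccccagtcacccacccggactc
B2M, chr15:44711267-44711516, plus strand: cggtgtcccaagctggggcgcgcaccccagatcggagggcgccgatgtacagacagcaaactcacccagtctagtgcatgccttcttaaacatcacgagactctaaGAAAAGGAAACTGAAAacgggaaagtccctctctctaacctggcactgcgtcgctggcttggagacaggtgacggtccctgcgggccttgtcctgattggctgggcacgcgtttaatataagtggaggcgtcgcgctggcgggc
TAP1, chr6:32853705-32853954, minus strand: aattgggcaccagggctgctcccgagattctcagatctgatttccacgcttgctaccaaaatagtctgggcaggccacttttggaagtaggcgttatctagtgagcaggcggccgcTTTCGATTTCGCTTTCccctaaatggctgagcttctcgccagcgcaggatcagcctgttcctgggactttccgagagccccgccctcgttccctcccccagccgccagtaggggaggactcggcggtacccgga
TAPBP, chr6:33314079-33314328, minus strand: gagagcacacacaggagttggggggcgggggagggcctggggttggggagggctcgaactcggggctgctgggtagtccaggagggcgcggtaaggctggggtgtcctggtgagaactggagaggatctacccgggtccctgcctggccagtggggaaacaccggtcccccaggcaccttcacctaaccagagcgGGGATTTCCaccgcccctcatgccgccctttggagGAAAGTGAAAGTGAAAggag

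The 7 members with a start region each held GAANNGAAA or the longer form GAAA, 2 bases and GAAA, and 9.081% of the 35116 RefSeq start regions of that length hold one of them. HLA-B and HLA-C held GAANNGAAA, which stands in 6.555% of all regions. HLA-F, B2M, TAP1, TAP2 and TAPBP held the longer form, which stands in 3.021% and was added to the search after these sequences had been read. In B2M, TAP1 and TAPBP it occurred at 2 overlapping places, and TAP2 held both forms in overlap. The pair GACGC and ATTGG was found in HLA-B and HLA-C, with 19 bases between them in each, against 0.4442% of all regions. HLA-B and TAPBP also held GGGNNTTCC, present in 5.778% of regions. A second TAP1 start region held TTCNNNGAA, letters of a STAT site, which 6.567% of regions hold. The 3 start regions that RefSeq gives for HLA-G, a heavy chain outside the set that also rose, held none of the letters searched. These matches are a description of letters in one window and identify no bound factor.

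Most members lie in the major histocompatibility complex on chromosome 6, and their positions are given on GRCh38 from GENCODE 44. HLA-F lies at chr6:29722775-29738528, HLA-E at chr6:30489509-30494194, HLA-C at chr6:31268749-31272130 and HLA-B at chr6:31353872-31367067. TAP2 lies at chr6:32821833-32838739, TAP1 at chr6:32845209-32853816 and TAPBP at chr6:33299694-33314284. B2M lies outside this cluster at chr15:44711358-44718851, and NLRC5 at chr16:56989485-57083531. The libraries carried no strand information, so reads from overlapping exons cannot be assigned with certainty. Exons of other genes overlap HLA-B (4 genes, at most 15.6 FPKM), HLA-F (3 genes, at most 1.54 FPKM), TAP1 (PSMB8-AS1, at most 6.41 FPKM) and TAP2 (1 gene, at most 0.232 FPKM), and 1 gene without an identifier in these files overlaps TAPBP. The class I heavy chains are close copies of each other, so the split of reads among them is uncertain. The sum of 12 HLA pseudogenes ran from 16.8 to 21.8 FPKM in the 4 libraries without cytokines and from 129 to 149 FPKM in the 4 with cytokines.

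Values were FPKM, that is, fragment counts divided by transcript length and by the fragments mapped in the library, with 21400 genes above 0 in at least 1 library. The smallest FPKM other than 0 ran from 0.164 to 0.228 over the libraries, and replicate libraries had Spearman correlations of 0.979 to 0.982. The share of FPKM in mitochondrially encoded genes was 17.02% and 24.2% for normal hIECs and 15.5% to 20.4% for the other 6 libraries. The epithelial label was checked against 12 markers, of which CDX2, VIL1, LYZ, MUC2, CHGA and KRT20 were at 0 in all 8 libraries and EPCAM stayed at or below 0.622 FPKM. The epithelial sum, carried by KRT8 and KRT18, was 657 to 665 FPKM in normal hIECs, 614 to 650.1 with PM10, 355 to 360.1 in inflamed hIECs and 297 to 316 in inflamed hIECs with PM10. All 10 mesenchymal markers were present, with sums of 4208 to 4248 FPKM in normal hIECs, 3726 to 3735 with PM10, 4428 to 4475 in inflamed hIECs and 3750.0 to 3783 in inflamed hIECs with PM10. The mesenchymal sum was above the epithelial sum in every library. Its single markers moved in both directions. COL3A1 was at 466 to 709 FPKM with cytokines against 1014 to 1035 without, and ACTA2 at 1011 to 1048 against 532 to 719. Of 10 markers of leukocytes and professional antigen-presenting cells, 7 were at 0 in every library and the sum was 0.253 to 1.83 FPKM, and 4 endothelial markers were at 0 throughout. Their part in the results was not tested.

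Cytokines raised the whole set. In inflamed against normal hIECs, 9 of 9 members were called higher by limma at an adjusted p under 0.05, against 25.9% of the 14206 genes tested, and 9 of 9 were at least 2-fold higher on the log2(FPKM + 1) scale, against 4.12%. The median log2 difference of the members was 2.88, beside -0.03 over all genes tested. The set was chosen with earlier results of these data known, so the shares and medians beside it are a description. NLRC5 entered the test only through the cytokine libraries, so its calls with cytokines are a description. The other 8 members reached 1 FPKM in at least 2 libraries without cytokines. All 9 were also called higher between the 2 groups with PM10 (25.8% of genes called higher, median 2.81) and between inflamed hIECs with PM10 and untreated normal hIECs (30.4%, median 2.92), and the comparisons with normal hIECs share those 2 libraries. The 4 libraries with cytokines lay above the 4 without for each of the 9, as they did for 24.4% of genes. Every member was called in each of these 3 comparisons under all 17 alternatives. In bulk RNA, a change in the share of expressing cells and a change in RNA per cell cannot be told apart.

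Among the heavy chains of the set, HLA-B had the largest value. It was at 132 and 129 FPKM in normal hIECs, 142 and 142 in normal hIECs with PM10, 1727 and 1716 in inflamed hIECs, and 1746 and 1699 in inflamed hIECs with PM10. The 4 cytokine libraries lay far above the other 4, and the difference of inflamed and normal hIECs was 3.71 ± 0.04 (SE) on the log2 scale, a 13.2-fold ratio of mean FPKM (limma, adjusted p = 3.29e-09). HLA-C, the other classical chain, started slightly higher and ended lower. It was at 139 and 142 FPKM in normal hIECs, 154 and 159 with PM10, 1016 and 1069 in inflamed hIECs, and 1112 and 1096 in inflamed hIECs with PM10. Its log2 difference was 2.88 ± 0.05 (SE), a 7.43-fold ratio (limma, adjusted p = 1.20e-08).

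The less variable chains had smaller values. HLA-E, the ligand of the natural killer receptor NKG2A, was at 55.3 and 56.0 FPKM in normal hIECs, 64.8 and 63.3 with PM10, 199 and 190.3 in inflamed hIECs, and 201 and 201 in inflamed hIECs with PM10. No cytokine library overlapped a library without cytokines, but the log2 difference of 1.79 ± 0.04 (SE), a 3.50-fold ratio, was the smallest of the 9 (limma, adjusted p = 1.08e-07). HLA-F was at 19.4 and 14.6 FPKM in normal hIECs, 14.98 and 16.2 with PM10, 94.6 and 95.7 in inflamed hIECs, and 90.8 and 87.3 in inflamed hIECs with PM10. The normal libraries of HLA-F spread more than those of the other chains, and its log2 difference was 2.43 ± 0.11 (SE), a 5.59-fold ratio (limma, adjusted p = 2.74e-06).

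**Figure D1:**
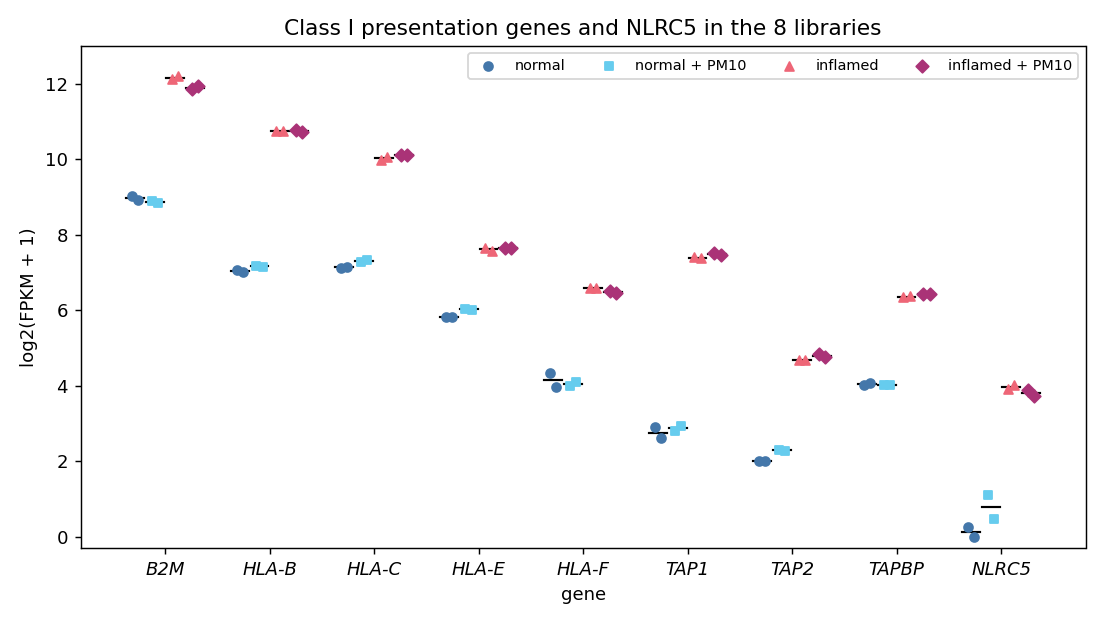
FPKM of the 9 members in the 8 libraries, as log2(FPKM + 1) on the vertical axis, with 1 symbol per library and a bar at the mean of the 2 libraries of a group. For every gene the 4 cytokine libraries (triangles and diamonds) sit above the 4 libraries without cytokines, from NLRC5 at 0 to 1.15 FPKM against 12.2 to 15.4 FPKM up to B2M at 462 to 525 FPKM against 3712 to 4690 FPKM.

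B2M, the light chain that every class I molecule needs, was the most abundant member in all 4 groups. It was at 525 and 482 FPKM in normal hIECs, 473 and 462 with PM10, 4458 and 4690 in inflamed hIECs, and 3712 and 3902 in inflamed hIECs with PM10. Its log2 difference of inflamed and normal hIECs was 3.18 ± 0.06 (SE), a 9.08-fold ratio (limma, adjusted p = 2.61e-08). Ranked by FPKM among protein-coding genes, it moved from place 117 to 135 in the libraries without cytokines to place 6 to 8 in those with cytokines, and HLA-B from 338 to 382 to 20 to 23. Together the 9 members took 0.181% to 0.208% of the FPKM sum without cytokines and 1.77% to 1.92% with them.

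Both transporter subunits rose. TAP1 was at 6.47 and 5.18 FPKM in normal hIECs, 6.04 and 6.64 with PM10, 168 and 167 in inflamed hIECs, and 181 and 175 in inflamed hIECs with PM10. Its log2 difference of 4.63 ± 0.09 (SE), a 28.8-fold ratio of mean FPKM, was the largest of the 9 members at a pseudocount of 1, though not at 0.1, where NLRC5 stood at 6.43 and TAP1 at 4.83 (limma, adjusted p = 3.33e-08). TAP2, its partner in the heterodimer, was at 3.03 and 3.00 FPKM in normal hIECs, 3.93 and 3.86 with PM10, 24.8 and 24.8 in inflamed hIECs, and 27.9 and 26.0 in inflamed hIECs with PM10. Its log2 difference was 2.68 ± 0.06 (SE), an 8.22-fold ratio (limma, adjusted p = 5.51e-08). TAPBP, which tethers the transporter to empty class I molecules, was at 15.1 and 15.9 FPKM in normal hIECs, 15.2 and 15.1 with PM10, 80.6 and 81.7 in inflamed hIECs, and 86.0 and 86.0 in inflamed hIECs with PM10. The difference for TAPBP was 2.31 ± 0.05 (SE), a 5.23-fold ratio (limma, adjusted p = 4.17e-08).

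NLRC5 was the least abundant member in every group. It was at 0.195 and 0 FPKM in normal hIECs, 1.15 and 0.387 in normal hIECs with PM10, 14.1 and 15.4 in inflamed hIECs, and 13.9 and 12.2 in inflamed hIECs with PM10. Since a normal library was listed at 0, no fold is given. The log2 difference of 3.85 ± 0.20 (SE) is a description, because NLRC5 passed the filter only through the cytokine libraries. It depends on the pseudocount, reaching 6.43 with 0.1 in place of 1. In the other 2 comparisons with cytokines the values were 3.02 ± 0.20 (SE) against normal hIECs with PM10 and 3.68 ± 0.20 (SE) for inflamed hIECs with PM10 against normal hIECs. CIITA, the related transactivator of class II genes, stayed at 0 to 0.388 FPKM in all 8 libraries and was not tested.

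**Figure D2:**
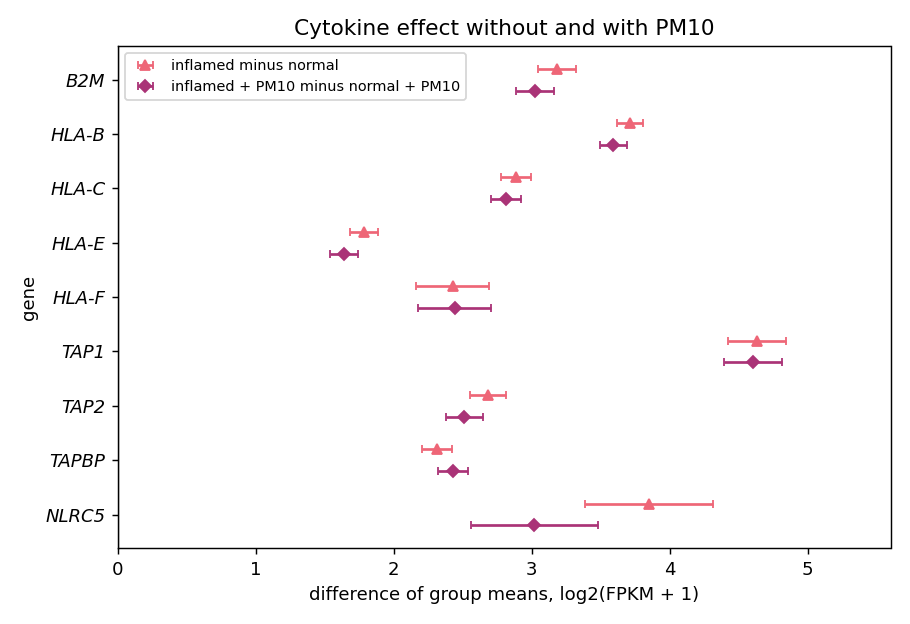
Difference of group means on the log2(FPKM + 1) scale (horizontal axis) for the 9 members, for inflamed minus normal hIECs (triangles) and for the same step in the presence of PM10 (diamonds), with 95% confidence intervals from limma. All values lie between 1.64 and 4.63, TAP1 is the highest (at the pseudocount of 1 used here) and HLA-E the lowest in both, and NLRC5 shows the widest intervals.

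The order of levels, read in FPKM and so per length of transcript, changed between the groups. In both groups without cytokines it ran B2M, HLA-C, HLA-B, HLA-E, HLA-F, TAPBP, TAP1, TAP2 and NLRC5, and among neighbours the values of HLA-F and TAPBP overlapped while the others did not. In both groups with cytokines HLA-B stood above HLA-C, and TAP1 stood above HLA-F and TAPBP, with no overlap between neighbours. With 2 libraries a group, no exact test of 1 gene can go below p = 0.333.

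Ratios within a library do not depend on how libraries were scaled to each other, and 4 were taken, chosen after the levels had been seen. HLA-B to HLA-C was 0.953 and 0.907 in normal hIECs, 0.927 and 0.893 with PM10, 1.70 and 1.60 in inflamed hIECs, and 1.57 and 1.55 in inflamed hIECs with PM10. TAP1 to TAP2 was 1.54 to 2.13 in the 4 libraries without cytokines and 6.48 to 6.77 in the 4 with cytokines. PSMB9, an inducible catalytic subunit of the proteasome, stood to PSMB6, the subunit it replaces, at 0.046 to 0.067 without cytokines and 1.13 to 1.21 with them. For these 3 ratios the libraries with and without cytokines did not overlap, which restates the unequal differences above. An exact permutation test was run on the ratios, but no p-value is read from it, because they were picked after the levels. The summed FPKM of HLA-B, HLA-C, HLA-E and HLA-F stood to B2M at 0.658 to 0.823 without cytokines and 0.655 to 0.849 with them. Within each state the 2 PM10 libraries lay above the 2 others in this last ratio, at 0.795 and 0.823 against 0.658 and 0.708, and at 0.849 and 0.790 against 0.681 and 0.655. This ordering was seen after the levels and was not tested. It restates higher heavy chain sums and lower B2M with PM10. Mean B2M was 467 against 504 FPKM in normal hIECs, a fall that was not called, and 3807 against 4574 FPKM in inflamed hIECs.

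**Figure D3:**
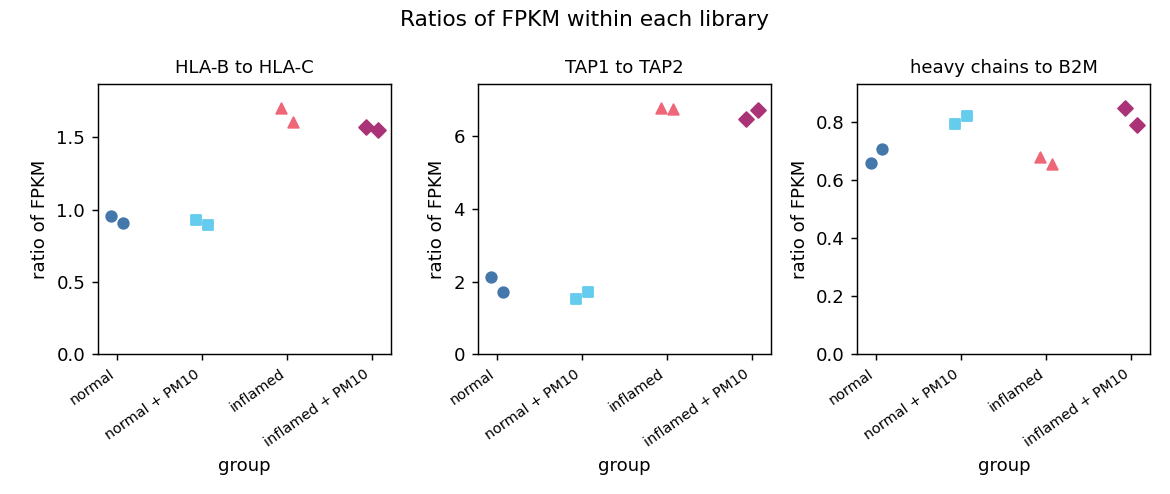
Ratios of FPKM within each library (vertical axes from 0), with 1 symbol per library in the 4 groups. HLA-B to HLA-C and TAP1 to TAP2 are higher in the 4 cytokine libraries, at 1.55 to 1.70 and 6.48 to 6.77, while heavy chains to B2M spans 0.655 to 0.849 with cytokines and 0.658 to 0.823 without.

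PM10 alone gave log2 differences of -0.11 to 0.66 over the 9 members. In normal hIECs, 2 of 9 members were called with PM10, both higher, against 9.23% of all genes called in either direction and 5.51% called higher. TAP2 rose by 0.29 ± 0.06 (SE) on the log2 scale, 29.1% in mean FPKM (limma, adjusted p = 0.0270), and HLA-E rose by 0.20 ± 0.04 (SE), 15.2% in mean FPKM (limma, adjusted p = 0.0340). Both libraries with PM10 lay above both normal libraries for HLA-B, HLA-C, HLA-E, TAP2 and NLRC5, as they did for 37.3% of all genes, and below them for B2M, as for 19.2%. The median of the members was 0.12 beside 0.06 over all genes.

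Neither of these 2 passed when only the normal groups entered the fit (adjusted p = 0.166 for TAP2 and 0.1495 for HLA-E), and HLA-E was lost under median centring (adjusted p = 0.103). TAP2 was lost without any 1 library other than normal replicate 1 (adjusted p of 0.0513 to 0.136), and HLA-E without any 1 library outside the normal group (0.0632 to 0.171). Without normal replicate 1, HLA-B (0.14, adjusted p = 0.0273) and TAP1 (0.25, adjusted p = 0.0419) passed as well. HLA-F passed as lower without normal replicate 2 (-0.30, adjusted p = 0.0499), where its value was -0.11 ± 0.11 (SE) with all libraries. HLA-C, at 0.15 ± 0.05 (SE) and an adjusted p of 0.0765, passed under quantile normalization (0.18, adjusted p = 0.0389).

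NLRC5 had the largest PM10 value in normal hIECs, 0.66 ± 0.20 (SE), without passing the test (limma, adjusted p = 0.0774). It passed without replicate 2 of normal hIECs with PM10 (0.98, adjusted p = 0.0367), where a single library at 1.15 FPKM remains. With a pseudocount of 0.1 its value was 2.19. All of its values without cytokines lay at or below 1.15 FPKM.

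In inflamed hIECs, PM10 changed 1 of 9 members by the test, against 15.2% of all genes. B2M fell by 0.26 ± 0.06 (SE) on the log2 scale, or fell by 16.8% in mean FPKM (limma, adjusted p = 0.0257), and both inflamed libraries with PM10 lay below both without, as for 33.2% of genes, where 9.02% of all genes were called lower. This call was lost under quantile normalization (-0.05, adjusted p = 0.627) and without any 1 of the 6 libraries outside the normal group (adjusted p of 0.0541 to 0.146), and it stood without either normal library. In normal hIECs the value of B2M was -0.11 ± 0.06 (SE) and did not pass (limma, adjusted p = 0.272). The other 8 members ran from -0.17 for NLRC5 to 0.11 for TAP2, with adjusted p-values of 0.213 to 1, and HLA-B was at 0.00 with a 95% interval of -0.10 to 0.10. Intervals of this width leave room for small shifts in either direction.

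The interaction asks whether PM10 acted differently with cytokines than without. None of the 9 members passed (limma, 2 of 9 at an unadjusted p under 0.05), against 6.6% of all genes. NLRC5 had the largest value, -0.83 ± 0.28 (SE). It is a description, because NLRC5 passed the filter only through the cytokine libraries. The value rests on 0.195 and 0 FPKM in normal hIECs beside 1.15 and 0.387 with PM10. It depends on the pseudocount, reaching -2.36 with 0.1 in place of 1. Without replicate 2 of normal hIECs with PM10, where a single library at 1.15 FPKM remains, it was -1.15. HLA-E was at -0.15 ± 0.06 (SE) (limma, adjusted p = 0.192).

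**Figure D4:**
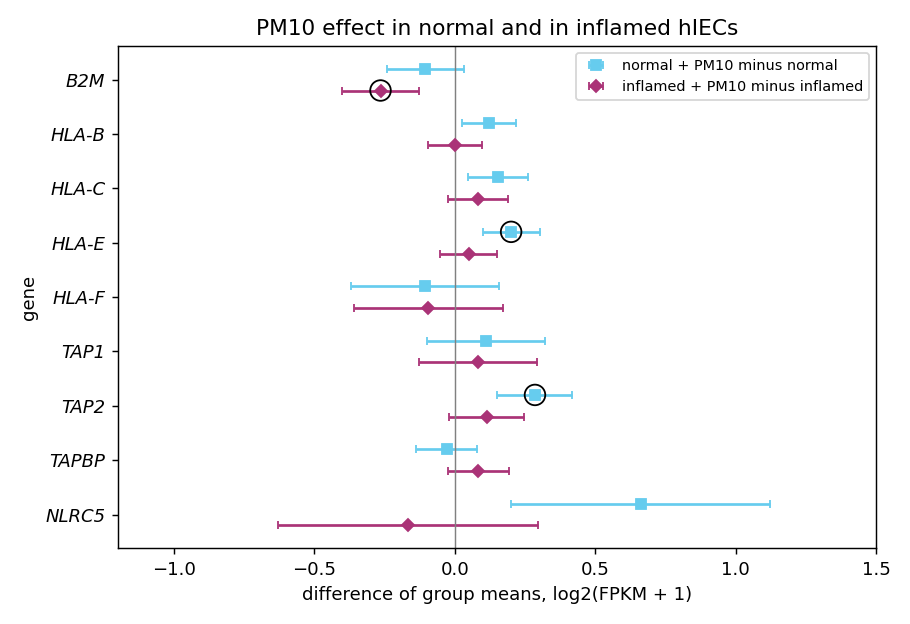
PM10 effect on the 9 members as a difference of group means on the log2(FPKM + 1) scale (horizontal axis), in normal hIECs (squares) and in inflamed hIECs (diamonds), with 95% confidence intervals from limma and a ring around values with an adjusted p under 0.05. The rings are at TAP2 and HLA-E in normal hIECs and at B2M in inflamed hIECs, and no value other than that of NLRC5 (0.66) is farther than 0.29 from 0.

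There were 45 other genes of the class I pathway, also listed with earlier results of these data known. Of them, 43 were tested and 40 reached 1 FPKM in at least 2 libraries without cytokines. In inflamed against normal hIECs 30 were called, against 56.2% of all genes, with 25 higher and 5 lower (25.9% and 30.3% of all genes), and 14 differed by at least 2-fold. The median of the 43 was 0.31, beside -0.03 over all genes. HLA-G, ERAP2, HFE and CD1D passed the filter only through libraries in which they were high, so their differences are a description. HLA-G and ERAP2 are among the 25 called higher and the 14 past 2-fold. Leaving out single libraries gave 25 to 29 calls. Among the heavy chains outside the members, HLA-G, a chain known from the placenta, rose by 3.26 ± 0.17 (SE), from 0.292 and 0 FPKM to 11.6 and 8.42. The chains with a class I fold and other functions went differently. FCGRT, the neonatal Fc receptor, fell by 0.58 ± 0.08 (SE), HFE, a regulator of iron uptake, was at 0.15 ± 0.09 (SE), CD1D, which presents lipids, was at -0.29 ± 0.13 (SE), and MR1 was not tested.

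The genes that supply peptides were measured at the RNA level. All 5 genes of the immunoproteasome and its activator were called higher, against 25.9% of all genes, led by PSMB9 (4.46 ± 0.11, SE), PSMB8 (2.34 ± 0.08, SE) and the activator subunit PSME2 (2.25 ± 0.09, SE). The constitutive subunits had smaller values, with PSMB6 at 0.32 ± 0.06 (SE) and PSMB7 at 0.13 ± 0.05 (SE) called higher and PSMB5 at -0.07 ± 0.05 (SE) not called. PSMB7 passed in 6 of 17 alternatives. The trimming enzyme ERAP1 rose by 2.53 ± 0.07 (SE), and ERAP2, listed at 0 in the 4 libraries without cytokines, was at 0.934 to 1.12 FPKM in the 4 with them. Exons of PSMB8 (at most 101 FPKM) and PSMB9 (at most 162 FPKM) overlap on opposite strands, and ERAP1 overlaps 3 genes with CAST among them (at most 43.5 FPKM). Without strand information the split of these reads is uncertain, also in the ratio of PSMB9 to PSMB6. TAPBPL, a peptide editor related to tapasin, rose by 2.57 ± 0.08 (SE), whereas the chaperones CANX and PDIA3 rose by 0.34 ± 0.07 (SE) and 0.20 ± 0.07 (SE), PDIA3 passing in 9 of 17 alternatives. The stress ligands MICB, ULBP1 and ULBP2, which engage the receptor NKG2D, rose by 2.15 ± 0.09, 0.90 ± 0.07 and 0.32 ± 0.10 (SE).

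Among 14 transcription factors of the pathway, 13 were tested and 8 were called, with 5 higher and 3 lower, a share close to the 56.2% called among all genes. IRF1, which binds response elements of interferon, went from 4.21 and 3.09 FPKM to 81.2 and 81.3 (4.15 ± 0.11, SE). NFKB1 rose by 1.84 ± 0.06 (SE) and IRF2 by 0.78 ± 0.06 (SE). Of the DNA-binding partners of NLRC5, RFX5 rose by 0.31 ± 0.07 (SE), RFXANK fell by 0.29 ± 0.06 (SE), and RFXAP was at -0.21 ± 0.08 (SE) without passing. Of the Y-box factors, NFYB fell by 0.47 ± 0.11 (SE), NFYC fell by 0.38 ± 0.06 (SE), and NFYA was at -0.01 ± 0.09 (SE). CREB1, ATF1 and RELA were at 0.06 ± 0.11, 0.16 ± 0.08 and 0.01 ± 0.06 (SE), without passing. The receptors and kinases that feed these factors had 3 of 6 called, below the share of 56.2% over all genes, with JAK2 (0.71 ± 0.10, SE) and TNFRSF1B (0.67 ± 0.08, SE) higher and IFNGR2 (-0.26 ± 0.07, SE) lower.

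**Figure D5:**
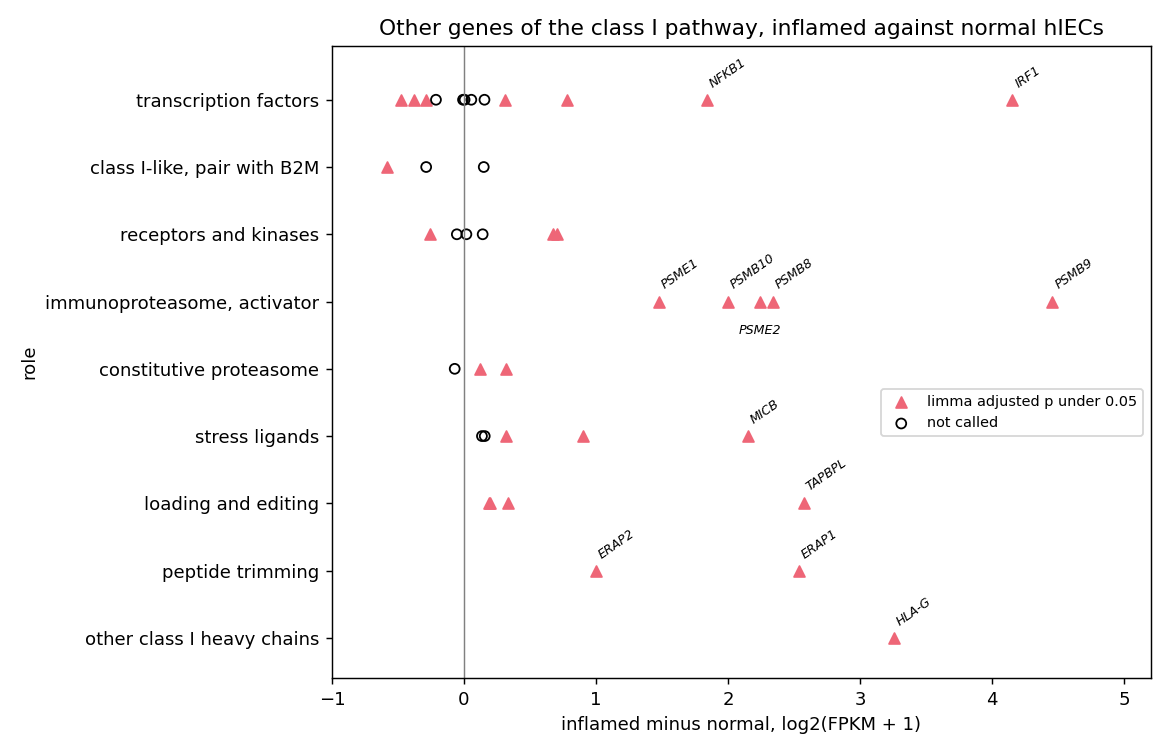
Inflamed minus normal hIECs on the log2(FPKM + 1) scale (horizontal axis) for tested genes of the class I pathway outside the members, by role, with filled triangles for an adjusted p under 0.05 and open circles otherwise, and names for genes at 1 or more. The 5 immunoproteasome genes lie between 1.48 and 4.46 and the 3 constitutive subunits between -0.07 and 0.32.

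PM10 alone changed 6 of the 43 by the test in normal hIECs, 4 higher and 2 lower, against 5.51% and 3.72% of all genes. Among those higher were IRF1 (0.44 ± 0.11, SE, passing in 5 of 17 alternatives), NFKB1 (0.32 ± 0.06, SE, 11 of 17) and TNFRSF1A (0.31 ± 0.05, SE, 14 of 17). MICA (-0.31 ± 0.07, SE) and PSMB5 (-0.22 ± 0.05, SE) were lower, each passing in 4 of 17. The count fell to 0 without either library of normal hIECs with PM10, to 1 without normal replicate 2 or either library of inflamed hIECs with PM10, and to 2 without either inflamed library. In inflamed hIECs 5 of 43 were called with PM10, a smaller share than the 15.2% of all genes, with MICB (0.55 ± 0.09, SE), HFE (0.48 ± 0.09, SE), CANX (0.42 ± 0.07, SE) and MICA (0.30 ± 0.07, SE) higher and PSME1 (-0.21 ± 0.04, SE) lower. HFE entered the test only through the inflamed libraries with PM10, so its difference is a description. The count was 0 without replicate 1 of either inflamed group, 1 without inflamed replicate 2, 2 without replicate 2 of inflamed hIECs with PM10, and 9 without either normal library.

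The genes whose pattern lay nearest to NLRC5 were sought among 12374 protein-coding genes, by the root mean square difference of log2(FPKM + 1), taken from its mean in normal hIECs, over the 8 libraries. They were IRF1 (0.294), GBP1 (0.294), a gene listed as AC004551.1 with the identifier of OAS1 (0.305), CCL11 (0.326) and IFIT3 (0.343). For the mean of the other 8 members the nearest included TRIM22 (0.062), PARP14 (0.065), CLIC2 (0.098) and OAS3 (0.107). Within the set, HLA-F and TAPBP were the closest pair (0.141) and HLA-E and TAP1 the farthest (2.03), and NLRC5 lay nearest to HLA-B (0.328). These distances are a description, since the 8 libraries fall into 4 with and 4 without cytokines. They were taken only at a pseudocount of 1, on which the values of NLRC5 depend. With 0.1 the difference of inflamed and normal hIECs was 6.43 for NLRC5, 4.83 for TAP1 and 3.72 for HLA-B.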

How the data were processed

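RNA-seq covered 8 libraries of 2D hIECs, 2 in each of 4 groups, grouped by the sample records. Poly-A selected, non-strand-specific libraries were read as paired ends. The authors trimmed reads with Cutadapt 3.7 and Sickle 1.33, used HISAT2 2.2.1 against GRCh38, and computed FPKM with StringTie 2.2.0. These deposited FPKM were used unchanged. The annotation release is not given in the sources used here, and 99.5% of identifiers are in GENCODE 44. Read totals were not used here, so depth is unknown.

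limma 3.58.1 (R 4.3.3), with a variance trend, was fitted to log2(FPKM + 1) of all 8 libraries for the 14206 genes that reached 1 FPKM in 2 or more libraries, with Benjamini-Hochberg adjustment over all genes within each of 6 comparisons. This scale understates changes of low genes. The fit was tested on simulated data. Alternatives changed the pseudocount, filter, scaling, trend, gene types, groups fitted and replicate block, and left out each library. Members, lists and motifs were chosen with earlier results of these data known. The text names all members, genes of nearest pattern and, of other pathway genes, up to 3 per role with the largest called difference between inflamed and normal hIECs, every heavy chain and transcription factor, and any called interaction. Genes called with PM10, and CD1D, MR1 and PSMB5, were named after their values were seen. Some genes of these lists are counted but not reported here by name.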

Additional observations from a re-analysis of the deposited data

Results flagged for a closer look

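Of 43 other genes of the class I pathway, MICA, HFE and TNFRSF1A, 3 in all, passed the interaction of PM10 and cytokines in limma (adjusted over all genes, 2 libraries a group), a share near the 6.6% of all genes and so no result about the pathway. For MICA, a stress ligand, the interaction was 0.61 ± 0.11 (SE, adjusted p = 0.0207): its FPKM was 18.8 and 17.3 in normal hIECs, 13.6 and 15.3 with PM10, 20.8 and 19.7 in inflamed hIECs, and 24.6 and 25.9 in inflamed hIECs with PM10. For HFE it was 0.55 ± 0.13 (SE), with 0.599 and 0.574, 0.549 and 0.474, 0.793 and 0.728, and 1.43 and 1.47 FPKM in the same order. HFE passed the filter only through the last group, whose height makes the interaction, so its value is a description with no test. For TNFRSF1A, a TNFα receptor, it was -0.37 ± 0.07 (SE, adjusted p = 0.0298), with 49.4 and 48.6, 58.8 and 63.2, 49.3 and 50.03, and 48.3 and 46.8 FPKM. MICA passed in 11 and TNFRSF1A in 9 of 16 alternatives, each with the sign kept. The count of 3 rose to 5 without either normal library, fell to 1 without replicate 2 of normal hIECs with PM10, and was 0 without any of the other 5 libraries.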

How the results depend on the processing

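Of 909 alternative values of the members over 6 comparisons, 879 kept their direction or stayed uncalled, on the same side of the threshold, 24 lost and 6 gained a call, and 0 changed sign once called. All 9 members stayed called in the 3 comparisons with cytokines, where the calls of NLRC5 are a description. For PM10 in normal hIECs the 2 members called became 1 under median centring, 1 without the trend and 0 with only the groups compared, and 0 to 4 with single libraries left out. For PM10 in inflamed hIECs the 1 called became 0 under quantile normalization, and 0 to 1 with single libraries left out. The 0 of the interaction became 0 to 1. Of the other pathway genes, the 6 called with PM10 in normal hIECs became 3 with a pseudocount of 0.1, 2 without a filter, 2 without the trend and 0 with only the groups compared, and 0 to 8 with single libraries left out. The 5 called with PM10 in inflamed hIECs became 8 under median centring, 3 without the trend and 8 with only the groups compared, and 0 to 9 with single libraries left out. The 3 interactions became 5 under median centring and 6 under quantile normalization, and 0 to 5 with single libraries left out. A lone library was assumed to vary like the other groups. With only the groups compared, fewer libraries enter the fit. The cause of the other shifts was not tested.

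Same-numbered libraries did not deviate together (correlations of -0.0015 to 0.0793). Such correlations cannot tell whether libraries with the same number shared a culture or batch, so any pairing remains unknown. With the replicate block, 9, 9 and 9 members were called with cytokines, 2 and 1 with PM10 and 0 for the interaction, and 30, 5, 5 and 2 of the other pathway genes in inflamed against normal hIECs, with PM10 in normal and in inflamed hIECs, and for the interaction. Median centring moved the median of all genes in inflamed against normal hIECs with PM10 from -0.11 to -0.06. Depth was unknown, and values near the lowest value above 0 of a library, such as those of NLRC5 without cytokines, carry little precision.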
